A study of Mus musculus with 8 samples.

Results

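The 45 genes described here encode subunits of Mediator, with 32 genes, and of the SWI/SNF chromatin remodelling complexes, with 13 genes. They were chosen by symbol, as GENCODE M21 gives it for each Ensembl identifier, out of the 55450 genes in the deposited table. All 45 were found, all 45 passed the filter on low counts, and their estimated counts ran from 81 to 5043 in a library. RNA came from 8 mouse livers, all exposed to dietary ethanol. An adeno-associated virus (AAV) named for the imprinted long non-coding RNA H19 was the treatment of 4 of the animals (AAV-H19, livers 25 to 28), and the other 4 carried AAV-Null (livers 21 to 24), whose insert the labels do not describe. The labels give neither strain nor age, nor the promoter of the vector, and they do not say which liver cells it reached.

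Mediator is a large assembly that bridges transcription factors bound at enhancers and RNA polymerase II at promoters. Its head and middle modules contact the polymerase, its tail contacts activators, Med14 holds these parts together, and a kinase module with cyclin C and Cdk8 or Cdk19 joins and leaves the rest. SWI/SNF complexes use the ATPase Smarca4 or Smarca2 to slide or evict nucleosomes. They come in a BAF form that carries Arid1a or Arid1b, and a PBAF form that carries Arid2 and Pbrm1. In liver, both assemblies are known as partners of nuclear receptors that control lipid and bile acid genes.

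H19 was at 104 to 155 CPM (counts scaled to a common library size by TMM) in the AAV-H19 livers and at 0.142 to 1.41 CPM in the AAV-Null livers, so each library matched its label. The table totals were 63.7 M to 78.8 M units in AAV-H19 and 78.3 M to 83.0 M units in AAV-Null libraries. A trend with transcript length separated the groups. Over 13538 protein-coding genes, Spearman's rho between a library's log2 deviation from the mean of all libraries and transcript length was 0.218 to 0.449 in AAV-H19 and -0.413 to -0.122 in AAV-Null. Defining hepatocyte markers were present in all libraries, with a summed level of 118990 to 128538 CPM in AAV-H19 livers, against 81834 to 115788 CPM in AAV-Null livers, over 8 genes. Alb made up most of this sum and did not pass (edgeR adjusted p = 0.23). Of the hepatocyte markers 6 had positive and 2 negative fitted changes, and Cps1 and Hnf4a rose (edgeR adjusted p = 0.0102 and 0.0243). The summed level of 8 Kupffer cell and macrophage markers was 141 to 197 CPM in AAV-H19 livers, against 274 to 393 CPM in AAV-Null livers, and 6 of the 8 fell. With each library's trend with transcript length taken out, 2 of these 8 Kupffer cell markers, Clec4f and Lyz2, passed as lower (edgeR adjusted p = 0.039 and 0.0358). No hepatocyte marker passed in that fit. The part of these marker differences in the results on the 45 genes was not tested. In such bulk samples, fewer cells of a type and less RNA per cell cannot be told apart.

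Among the 45 genes, 6 rose in AAV-H19 livers and none fell. The 6 were Med13l, Med13 and Med1 of Mediator, and Smarcc2, Arid1b and Arid2 of SWI/SNF, with fitted changes of 0.59 to 1.44 on the log2 scale. They were 13.3% of the 45 genes, where 5.6% of all 16672 genes tested were higher and 6.07% were lower (edgeR, quasi-likelihood F test, p adjusted by Benjamini and Hochberg under 0.05). At an unadjusted p under 0.05, 6 Mediator genes were higher and 8 lower, and 3 SWI/SNF genes were higher and none lower, where 14.1% of all genes were higher and 15.7% lower. DESeq2 gave 6 higher and 6 lower Mediator genes, and 3 higher and 0 lower SWI/SNF genes, where it called 10.2% of all genes higher and 12.6% lower. limma-voom gave 3 higher and 0 lower in each complex, with 6.34% of all genes higher and 5% lower. The groups did not overlap in 16 of the 45 genes, or 35.6%, against 23.7% of all genes tested. Of the 16, 9 were higher and 7 lower in AAV-H19. The counts moved when 1 library was left out. The SWI/SNF count was 0 higher without AAV-H19 25, 26, 27 or 28 and without AAV-Null 24. The Mediator count was 1 higher without AAV-H19 27, whereas 2 Mediator genes were lower without AAV-Null 21 or 23. Calls over all genes moved too, with 128, 206, 86 and 373 higher without AAV-H19 25, 26, 27 and 28 and 679 without AAV-Null 24. Without AAV-Null 21 or 23, 1049 or 1050 genes in all were lower. The SWI/SNF median log2 fold change was 0.32 to 0.58 with 1 library left out. Over all genes, 934 were higher and 1012 lower, and upper-quartile scaling gave 656 higher and 1557 lower, with a shift of -0.11 on the log2 scale in the median of all genes.

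**Figure D1:**
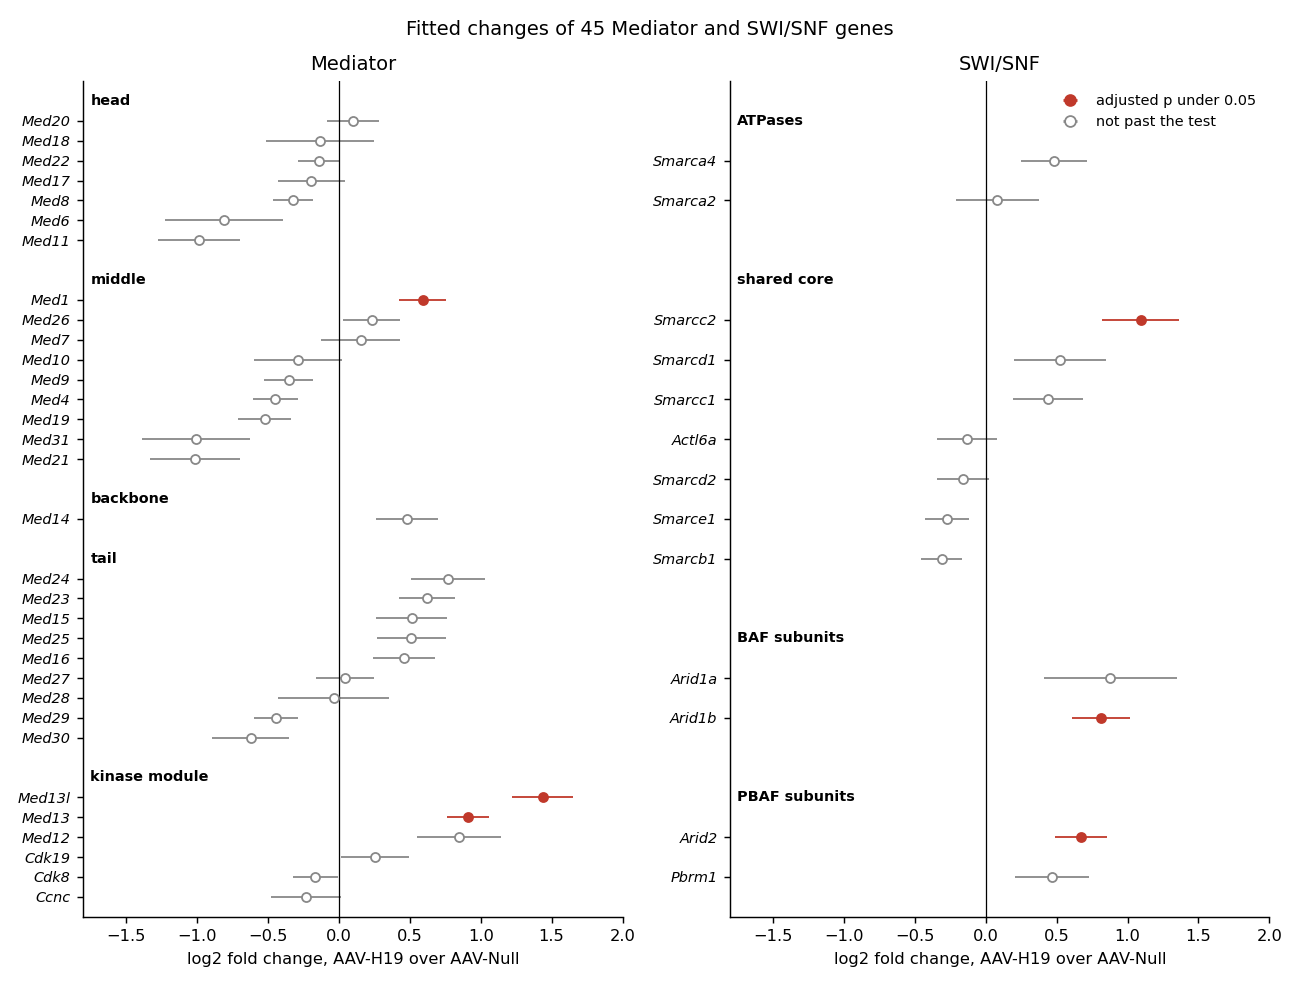
Log2 fold change (AAV-H19 over AAV-Null, x axis) of each Mediator gene (left) and SWI/SNF gene (right), grouped by module; bars are standard errors from edgeR and filled red points passed an adjusted p of 0.05. The 3 Mediator and 3 SWI/SNF genes that passed all lie to the right of 0, and the most negative points are the small subunits Med21, Med31 and Med11.

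The sequences before the transcription starts of 3 genes are shown because these had the largest fitted changes among those that rose. Each is the part of the RefSeq promoter window (GRCm38.p6) that precedes the gene as GENCODE annotates it, written 5′ to 3′ on the gene's own strand. Capitals mark the GC box GGGCGG, or its reverse complement CCGCCC, which is bound by Sp1-type factors. The windows are chr5:118560469-118560678 (plus strand) for Med13l, chr11:86357603-86357846 (minus strand) for Med13 and chr10:128458986-128459235 (plus strand) for Smarcc2.
Med13l: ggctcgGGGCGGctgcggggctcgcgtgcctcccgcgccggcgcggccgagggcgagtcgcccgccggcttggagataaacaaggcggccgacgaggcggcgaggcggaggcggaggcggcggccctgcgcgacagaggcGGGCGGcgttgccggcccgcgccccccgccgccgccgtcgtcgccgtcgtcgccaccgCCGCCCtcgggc
Med13: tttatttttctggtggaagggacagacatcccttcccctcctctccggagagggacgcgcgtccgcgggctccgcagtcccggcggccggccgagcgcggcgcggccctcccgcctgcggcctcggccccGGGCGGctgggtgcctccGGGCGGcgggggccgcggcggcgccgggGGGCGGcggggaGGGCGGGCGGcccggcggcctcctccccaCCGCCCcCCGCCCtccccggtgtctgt
Smarcc2: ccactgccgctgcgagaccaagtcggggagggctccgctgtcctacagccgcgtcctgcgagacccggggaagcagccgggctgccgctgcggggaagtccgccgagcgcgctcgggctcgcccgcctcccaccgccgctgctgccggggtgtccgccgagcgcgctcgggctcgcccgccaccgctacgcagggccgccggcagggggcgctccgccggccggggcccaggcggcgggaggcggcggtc

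A RefSeq window was matched for 38 of the 45 genes, as the nearest one with no limit on distance. Some windows lie within the gene as GENCODE annotates it, among them those of Med15, Smarcd2, Arid1b and Med1. The start below is the RefSeq start of each window. In the 250 bases before the start, G and C made up 84% in Med13l, 80% in Med13 and 80.8% in Smarcc2, against a median of 60.6% over the 38 genes and 52.4% over 32851 promoters in the table. Searched on both strands, the GC box was found in 26 of the 38 windows, or 68.4%, and in 32.7% of all promoters. The Smarcc2 window held 0 GC boxes. The 32851 promoters were not limited to genes tested here or to windows as rich in G and C, so these shares do not set the members apart from such promoters. The CCAAT box (CCAAT) was found in 28.9% of the 38 and 33.8% of all, and the TATA box (TATAAA) in 10.5% of the 38 and 12.4% of all. The ETS core CCGGAAG and the NRF1 core GCATGC were each found in 15.8% of the 38 windows, against 6.91% and 6.7% of all. The E box CACGTG was in 7.89% against 6.02%, the cyclic AMP response core TGACGT in 13.2% against 6.47%, and the YY1 core ATGGCGG in 0% against 2.21%. These matches are descriptions of letters, and some of the letters of different motifs can overlap.

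The kinase module held the largest rise. Med13l, which with Med13 tethers this module to the rest of Mediator, was at 13.7, 13.5, 17.1 and 13.2 CPM in AAV-H19 livers 25 to 28, against 6.47, 4.97, 6.04 and 3.75 CPM in AAV-Null livers 21 to 24. Every AAV-H19 liver was above every AAV-Null liver. The log2 fold change was 1.44 ± 0.21 (SE), or 2.71-fold, with an edgeR adjusted p of 0.00897. Med13l lies on chromosome 5 at 118560679 to 118765438 (GRCm38) and its longest transcript has 9296 nt. It was the single member of the 45 that passed whichever library was left out, at adjusted p of 0.0106 to 0.0452.

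Med13, its paralog, was at 27.8, 26.1, 33.2 and 27.6 CPM in AAV-H19 livers and at 17.0, 14.7, 14.8 and 14.5 CPM in AAV-Null livers. The groups were fully apart, and the AAV-Null livers lay close together. Its fitted log2 change was 0.91 ± 0.15 (edgeR adjusted p = 0.0128). Without AAV-H19 27 it was 0.84 and missed the threshold (edgeR adjusted p = 0.0607). The gene lies on chromosome 11 at 86267033 to 86357602, and its transcript has 10546 nt.

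Med12, which activates the kinase, was at 17.5, 14.8, 17.7 and 12.9 CPM in AAV-H19 livers and at 11.8, 4.86, 11.8 and 6.51 CPM in AAV-Null livers. The groups did not overlap, though AAV-H19 28 and AAV-Null 21 and 23 were close, and the log2 fold change of 0.85 ± 0.29 did not pass (edgeR adjusted p = 0.0867). The kinase and its cyclin did not pass. Cdk8 was at 19.6, 20.5, 22.2 and 22.5 CPM in AAV-H19 livers and at 28.5, 21.8, 23.8 and 20.9 CPM in AAV-Null livers, with overlap between the groups and a log2 fold change of -0.16 ± 0.16 (edgeR adjusted p = 0.515). Ccnc, which encodes cyclin C, was at 14.6, 17.7, 13.9 and 18.6 CPM in AAV-H19 livers and at 12.6, 27.3, 15.1 and 21.2 CPM in AAV-Null livers. The AAV-Null livers enclosed all AAV-H19 livers, and the log2 fold change was -0.23 ± 0.25 (edgeR adjusted p = 0.569). Cdk19, the alternative kinase, averaged 3.53 ± 0.479 CPM in AAV-H19 livers, against 2.95 ± 0.678 CPM in AAV-Null livers (SD, n = 4 each), with a log2 fold change of 0.26 ± 0.24.

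In the middle module, which sits between head and tail, 1 of 9 genes rose. Med1, the subunit through which nuclear receptors contact Mediator, was at 27.6, 21.7, 29.0 and 25.04 CPM in AAV-H19 livers and at 20.1, 14.5, 16.9 and 17.2 CPM in AAV-Null livers. The groups were apart by a small margin, between AAV-H19 26 and AAV-Null 21. Its fitted log2 change was 0.59 ± 0.17 and the edgeR adjusted p was 0.0481. It kept the call without AAV-Null 21 (adjusted p = 0.0442) and lost it without any other single library, AAV-H19 25 to 28 and AAV-Null 22 to 24 (adjusted p = 0.0597 to 0.149). It also missed the threshold with DESeq2 size factors, with upper-quartile factors and without the filter on low counts (edgeR adjusted p = 0.0509, 0.0856 and 0.0708).

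None of the other 8 middle genes passed, with 6 below 0 and Med7 and Med26 above it. Med21, which pairs with Med7 in the hinge of the middle module, was at 12.4, 17.0, 11.8 and 18.8 CPM in AAV-H19 livers and at 19.05, 43.6, 18.98 and 39.4 CPM in AAV-Null livers. AAV-Null 22 and 24 were far above the rest, while AAV-Null 21 and 23 lay just above AAV-H19 28. The log2 fold change was -1.01 ± 0.31 (edgeR adjusted p = 0.0626), and it passed without AAV-Null 21 (-1.19, adjusted p = 0.0426) and without AAV-Null 23 (-1.20, adjusted p = 0.0411). Med31 was at 3.12, 2.49, 2.17 and 4.98 CPM in AAV-H19 livers and at 3.45, 9.60, 4.52 and 8.05 CPM in AAV-Null livers, with overlap (log2 fold change -1.004 ± 0.38, edgeR adjusted p = 0.109). Med4 and Med19 had log2 fold changes of -0.45 and -0.52 with the groups apart, and Med7, Med9, Med10 and Med26 lay between -0.35 and 0.23. Nearly all of the exonic span of Med10, 92.8%, is shared with a long non-coding RNA on the opposite strand, and since the strand setting of the counting is not given, its value is uncertain.

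Med14, the backbone, was at 11.8, 16.0, 14.6 and 13.7 CPM in AAV-H19 livers and at 7.35, 13.5, 8.62 and 10.7 CPM in AAV-Null livers. AAV-Null 22 reached into the AAV-H19 range, and the log2 fold change of 0.48 ± 0.22 did not pass (edgeR adjusted p = 0.17). None of the 7 head genes passed, and 6 of these 7 had values below 0, with a median of -0.19. Med11, which pairs with Med22 in the head, was at 6.18, 5.65, 7.57 and 8.20 CPM in AAV-H19 livers and at 9.97, 22.3, 9.67 and 12.7 CPM in AAV-Null livers. The groups did not overlap and AAV-Null 22 was the highest library. The log2 fold change was -0.99 ± 0.29 (edgeR adjusted p = 0.0526), and it was past the threshold without AAV-Null 21 (-1.12, adjusted p = 0.0457) or without AAV-Null 23 (-1.13, adjusted p = 0.0426). The other head genes were Med6 at -0.81, Med8 at -0.32, Med17 at -0.19, Med22 at -0.14, Med18 at -0.13 and Med20 at 0.10.

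None of the 9 tail genes passed either, although the tail had a median log2 fold change of 0.46. Its large subunits, which receive signals from activators, were all positive. They were Med24 at 0.77, Med23 at 0.62, Med15 at 0.51, Med25 at 0.51 and Med16 at 0.46. Med24 averaged 14.7 ± 2.63 CPM in AAV-H19 livers, against 8.59 ± 2.71 CPM in AAV-Null livers (SD, n = 4 each), and Med24 and Med23 were apart between the groups. Med23 passed when AAV-Null 23 was left out (log2 fold change 0.75, edgeR adjusted p = 0.0473). The small tail subunits Med27, Med28, Med29 and Med30 had values of 0.04, -0.04, -0.44 and -0.62. Over the 32 Mediator genes, 15 fitted changes were positive and 17 negative, with a median of -0.08 beside -0.02 for all genes tested.

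**Figure D2:**
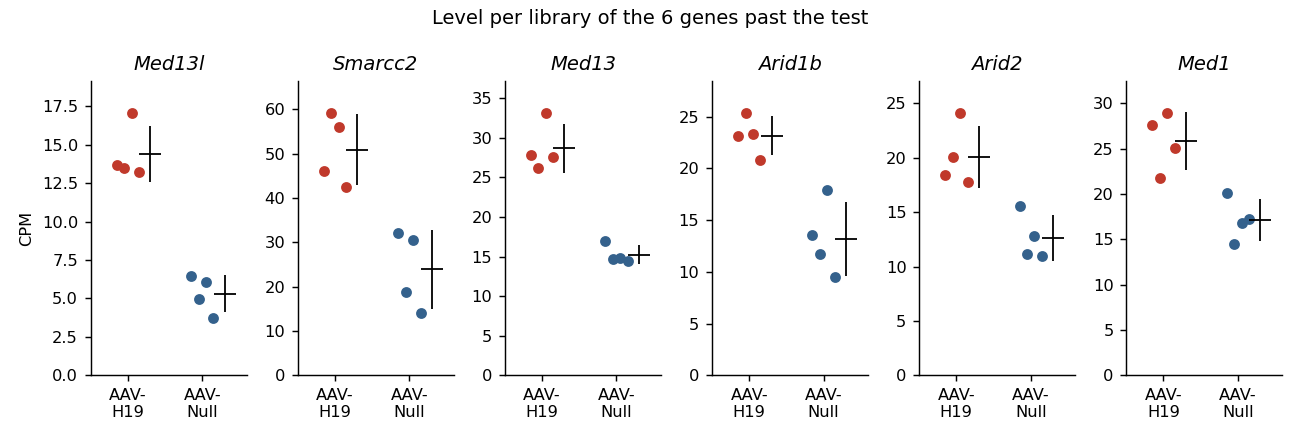
CPM (y axis, from 0) in each library for the 6 genes past an adjusted p of 0.05, with AAV-H19 livers in red and AAV-Null livers in blue; black bars are mean ± SD, n = 4 each. In all 6 panels the lowest AAV-H19 liver lies above the highest AAV-Null liver, with the widest gap relative to level in Med13l (13.2 against 6.47 CPM) and the narrowest in Med1 (21.7 against 20.1 CPM).

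In SWI/SNF, 9 of 13 fitted changes were positive, with a median of 0.47, and 3 genes rose, or 23.1% beside 5.6% of all genes. The median transcript of the 13 has 5921 nt, and 11.2% of protein-coding genes over 3352.5 nt were higher. With the length trend taken out, 0 of the 13 were higher. Smarcc2, a scaffold of the shared core, was at 46.1, 59.3, 55.9 and 42.4 CPM in AAV-H19 livers and at 32.2, 18.7, 30.6 and 14.1 CPM in AAV-Null livers. The groups were fully apart, and AAV-Null 22 and 24 were the lowest. The log2 fold change was 1.09 ± 0.27, or 2.13-fold (edgeR adjusted p = 0.0345). The call held without AAV-Null 21, 22 or 23 and ended without AAV-Null 24 (log2 fold change 0.91, adjusted p = 0.0503) and without AAV-H19 25, 26, 27 or 28 (adjusted p = 0.0593 to 0.11). Smarcc2 lies on chromosome 10 at 128459248 to 128490482, and its longest transcript has 4562 nt.

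Arid1b, a DNA-binding subunit of the BAF form, was at 23.1, 25.4, 23.3 and 20.8 CPM in AAV-H19 livers and at 13.5, 11.8, 18.0 and 9.48 CPM in AAV-Null livers. The groups did not overlap. The log2 fold change was 0.81 ± 0.21 (edgeR adjusted p = 0.0372), and it stayed past the threshold without AAV-Null 22 or 23 and not without any of the other 6 libraries, AAV-H19 25 to 28 and AAV-Null 21 and 24 (adjusted p = 0.0527 to 0.11). With upper-quartile factors it also ended (edgeR adjusted p = 0.0528). Arid1a, its paralog and the more studied of the pair in liver, was at 35.8, 38.8, 18.3 and 27.9 CPM in AAV-H19 livers and at 28.05, 4.97, 21.8 and 10.8 CPM in AAV-Null livers. Its values spread widely in both groups and overlapped, and a log2 fold change of 0.88 ± 0.47 did not pass (edgeR adjusted p = 0.239).

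Arid2, which defines the PBAF form, was at 18.4, 20.02, 24.1 and 17.8 CPM in AAV-H19 livers and at 15.6, 11.1, 12.8 and 11.01 CPM in AAV-Null livers. The groups were apart, with a log2 fold change of 0.67 ± 0.18 (edgeR adjusted p = 0.0422), and the call held without AAV-Null 21 and ended without any of the other 7 libraries, AAV-H19 25 to 28 and AAV-Null 22 to 24 (adjusted p = 0.0554 to 0.138). It also ended with upper-quartile factors and without the filter on low counts (edgeR adjusted p = 0.0691 and 0.0579). Pbrm1, the bromodomain subunit of PBAF, was at 26.7, 27.7, 26.1 and 25.1 CPM in AAV-H19 livers and at 18.2, 29.6, 17.6 and 11.04 CPM in AAV-Null livers. AAV-Null 22 was the highest of all 8 libraries and AAV-Null 24 the lowest, and the log2 fold change was 0.47 ± 0.26 (edgeR adjusted p = 0.261). Without AAV-Null 22 it was 0.76 with an adjusted p of 0.0338.

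Neither ATPase gene passed the test. Smarca4 was at 59.7, 65.2, 65.3 and 44.5 CPM in AAV-H19 livers and at 51.8, 26.5, 51.0 and 38.5 CPM in AAV-Null livers, with a log2 fold change of 0.48 ± 0.23 (edgeR adjusted p = 0.198). Smarca2 was at 32.3, 46.8, 56.6 and 44.9 CPM in AAV-H19 livers and at 58.1, 27.3, 56.6 and 28.4 CPM in AAV-Null livers, with a log2 fold change of 0.08 ± 0.29 (edgeR adjusted p = 0.878). In both genes AAV-Null 22 and 24 were well below AAV-Null 21 and 23, and the groups overlapped.

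The 4 negative fitted changes of SWI/SNF were in the shared core. Smarcb1, which contacts the nucleosome face, was at 18.8, 19.01, 18.2 and 17.0 CPM in AAV-H19 livers and at 24.8, 22.4, 23.3 and 20.1 CPM in AAV-Null livers. The groups did not overlap, but the log2 fold change of -0.31 ± 0.14 did not pass (edgeR adjusted p = 0.178). Smarce1 was at 24.5, 23.8, 19.02 and 22.9 CPM in AAV-H19 livers and at 30.1, 23.9, 25.9 and 29.0 CPM in AAV-Null livers (log2 fold change -0.27 ± 0.16, edgeR adjusted p = 0.271). Smarcd2 was at 29.6, 29.999, 29.4 and 30.8 CPM in AAV-H19 livers and at 33.7, 41.2, 35.7 and 23.2 CPM in AAV-Null livers. Its AAV-Null livers lay on both sides of the tight AAV-H19 values (log2 fold change -0.16 ± 0.18, edgeR adjusted p = 0.602). Actl6a, an actin-related subunit, stood at -0.13, and Smarcd1 and Smarcc1 were at 0.53 and 0.44 without passing.

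The fitted changes of these genes ran with the length of their transcripts. Across the 32 Mediator genes the rank correlation (Spearman's rho) of fitted change and longest annotated transcript was 0.801, and across the 13 SWI/SNF genes 0.489, beside 0.502 across 13538 protein-coding genes. By the length of the principal coding transcript it was 0.827 for Mediator and 0.72 for SWI/SNF, beside 0.536 for the protein-coding genes. These are descriptions across genes that share the same 8 libraries. By longest transcript, as in the bins that follow, all 6 members that rose were among the 26 over 3352.5 nt. This cut is the median of protein-coding genes tested, and above it 11.2% of the protein-coding genes were higher and 1.21% lower. Of the 6 members with transcripts over 8000 nt (Arid1a, Arid1b, Arid2, Med1, Med13 and Med13l) 5 rose, where 21.7% of 738 protein-coding genes of that length were higher. Of the 10 members of up to 2000 nt, 9 were below 0, with a median of -0.53, beside a median of -0.49 for 2884 protein-coding genes of that length, of which 17.4% were lower. The members' median was 0.85 over 8000 nt, against 0.56 for the genes of that length, a wider gap than in any other bin. It was -0.14 against -0.00 for 2000 to 4000 nt, 0.26 against 0.25 for 4000 to 6000 nt and 0.48 against 0.46 for 6000 to 8000 nt.

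With each library's trend with length taken out as an offset, 2.55% of all genes were called in either direction, and Med13l was the single member of the 45 that stayed higher. Its log2 fold change was 0.88 ± 0.17 (edgeR adjusted p = 0.0341). The offset did not take out all of the trend among the members. Fitted change and longest transcript still had a Spearman's rho of 0.376 for Mediator and 0.214 for SWI/SNF, beside 0.0827 for protein-coding genes. Smarcc2 kept a log2 fold change of 0.83 ± 0.24 but did not pass (edgeR adjusted p = 0.0803). Med13 was at 0.31, Arid1b at 0.24, Arid2 at 0.12 and Med1 at 0.05, with edgeR adjusted p of 0.248, 0.432, 0.664 and 0.875. Smarcb1 was called lower in this fit (log2 fold change -0.83 ± 0.14, edgeR adjusted p = 0.021). Its longest transcript, of 7441 nt, is a retained-intron form, and the principal coding transcript has 1660 nt. When principal transcripts set the length, 2.16% of all genes were called. Smarcb1 then had a log2 fold change of -0.13 (edgeR adjusted p = 0.664) and Smarcc2 one of 0.78 (edgeR adjusted p = 0.0987). Med13l had one of 0.86 ± 0.17 with an edgeR adjusted p of 0.0351. Spearman's rho of fitted change and principal length was 0.311 for Mediator and 0.451 for SWI/SNF in this fit, beside 0.0889 for protein-coding genes.

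**Figure D3:**
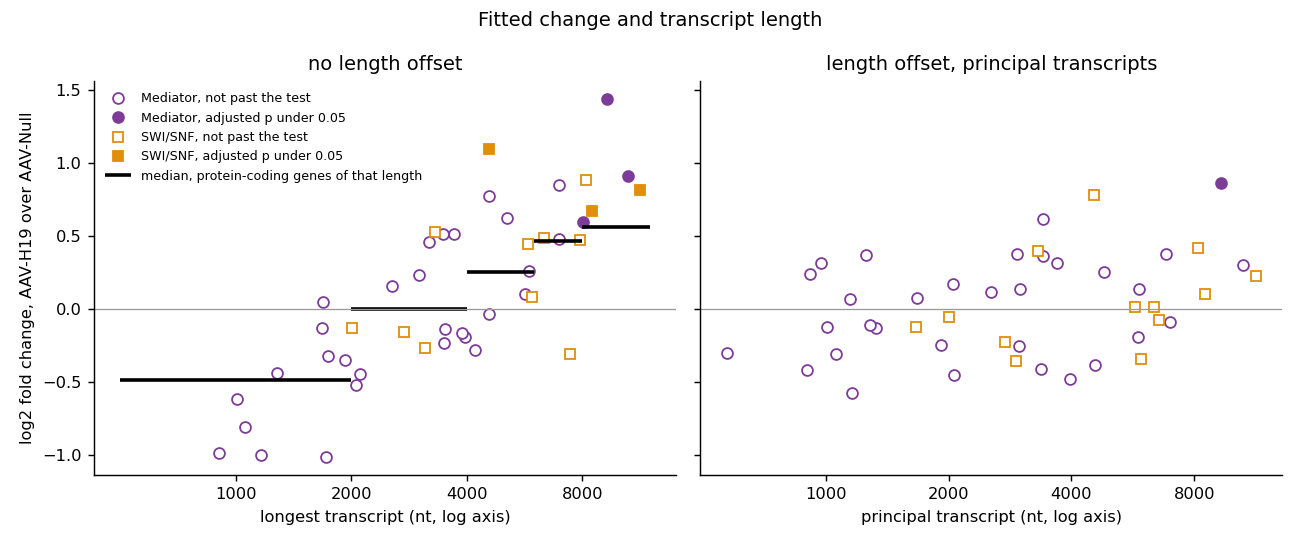
Log2 fold change (AAV-H19 over AAV-Null) against transcript length in nt on a log axis, for Mediator (circles) and SWI/SNF genes (squares), filled where the adjusted p was under 0.05; black bars on the left are medians of protein-coding genes in each length bin. On the left the members lie along the same slope as the bars, and on the right, with the length offset from principal transcripts, Med13l is the single filled point, at 0.86.

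The libraries within a group differed in the same way. Relative to the AAV-Null mean, the 26 members over 3352.5 nt had a median log2 difference of 0.57, 0.57, 0.62 and 0.39 in AAV-H19 livers 25 to 28 and of 0.25, -0.12, 0.21 and -0.17 in AAV-Null livers 21 to 24. The 19 shorter members stood at -0.30, -0.19, -0.44 and -0.23 in AAV-H19 livers, against -0.08, 0.33, -0.02 and 0.02 in AAV-Null livers. By these medians, long members were thus lower in AAV-Null 22 and 24 than in AAV-Null 21 and 23. Long here refers to the longest transcript, and the split was not repeated by principal transcript. Of the 26, Med10, Med22, Smarcb1, Med20 and Cdk8 have principal transcripts of 913, 973, 1660, 2054 and 2973 nt, under the cut. Of the 26 long members, 9 had their lowest level of all 8 libraries in AAV-Null 22 and 9 in AAV-Null 24, and of the 19 shorter ones 11 had their highest in AAV-Null 22.

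**Figure D4:**
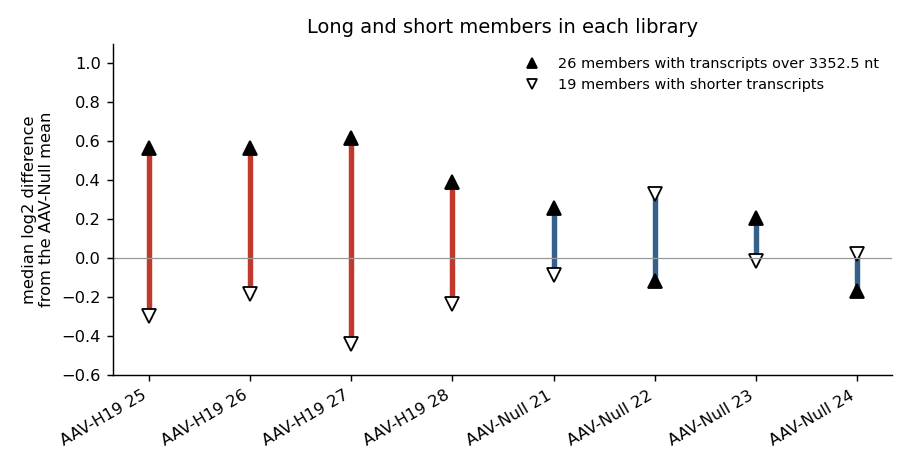
Median log2 difference from the AAV-Null mean (y axis) of long and short members in each library. Filled triangles are the 26 members with longest transcripts over 3352.5 nt, and open triangles the 19 shorter members. Joining lines are red for AAV-H19 and blue for AAV-Null livers. The long members lie above the short ones by the widest margin in AAV-H19 27 (0.62 against -0.44), and in AAV-Null 22 and 24 they lie below them.

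Paralogs that take the same place in a complex were compared as a ratio within each library, which needs no scaling between libraries. Of 6 pairs, 3 had ratios that did not overlap between the groups, each with an exact two-sided permutation p of 0.0286, the smallest that 4 libraries against 4 allow, and a Benjamini-Hochberg adjusted p of 0.0571, so none passed 0.05. The log2 ratio of Smarcc1 to Smarcc2 was -1.45, -1.92, -1.68 and -1.92 in AAV-H19 livers and -1.27, -1.33, -1.06 and -0.57 in AAV-Null livers, a difference of -0.69. Estimated counts of Smarcc2 exceeded those of Smarcc1 in every liver. The log2 ratio of Med13 to Med13l was 1.02, 0.96, 0.96 and 1.06 in AAV-H19 livers and 1.39, 1.56, 1.30 and 1.95 in AAV-Null livers, a difference of -0.55. Cdk8 to Cdk19 averaged 2.59 ± 0.23 in AAV-H19 and 3.03 ± 0.23 in AAV-Null livers (SD, n = 4 each), a difference of -0.43. With the length trend taken off, the differences were -0.83 for Smarcc1 to Smarcc2, -0.57 for Med13 to Med13l and -0.18 for Cdk8 to Cdk19. The exact two-sided permutation p was then 0.0286, 0.0286 and 0.286, with Benjamini-Hochberg adjusted p of 0.0857, 0.0857 and 0.343. The other pairs, Arid1a to Arid1b, Smarca4 to Smarca2 and Smarcd1 to Smarcd2, overlapped between the groups, with differences of 0.26, 0.37 and 0.74 and exact two-sided permutation p of 0.686, 0.171 and 0.114.

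**Figure D5:**
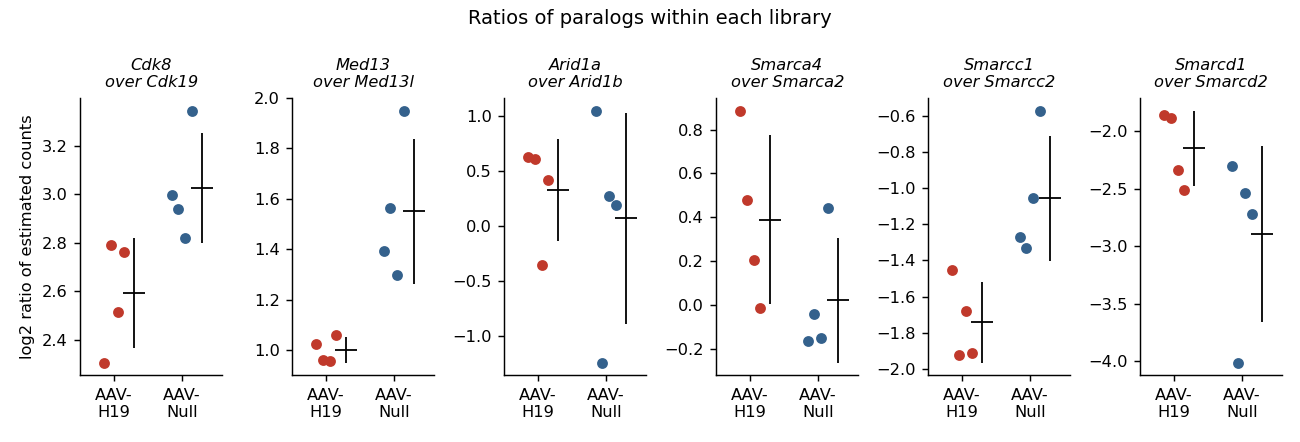
Log2 ratio of estimated counts (y axis, a scale for each panel) of 6 paralog pairs in each library, with AAV-H19 livers in red, AAV-Null livers in blue and mean ± SD in black (n = 4 each). The groups are apart in Cdk8 over Cdk19, Med13 over Med13l and Smarcc1 over Smarcc2, all lower in AAV-H19, and overlap in the other 3 pairs.

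Levels of different genes can be compared per kilobase of transcript. Per kilobase of the longest transcript, Med8 had the highest level of the 45 genes in both groups, with 16.0 ± 0.996 CPM per kilobase in AAV-H19 and 19.99 ± 1.72 in AAV-Null livers (SD, n = 4 each). The lowest was Cdk19, with 0.607 ± 0.0826 in AAV-H19 and 0.509 ± 0.117 in AAV-Null livers. Smarcc2 was at 11.2 ± 1.74 in AAV-H19 and 5.24 ± 1.95 in AAV-Null livers, and its paralog Smarcc1 at 2.65 ± 0.483 CPM per kilobase in AAV-H19 and 1.95 ± 0.583 in AAV-Null livers. Med13l was at 1.54 ± 0.196 CPM per kilobase in AAV-H19 and 0.571 ± 0.131 in AAV-Null livers, below Med13 at 2.72 ± 0.292 in AAV-H19 and 1.45 ± 0.111 in AAV-Null livers. For 7 members the longest transcript exceeds the principal one by over 1.5 times. Per kilobase of principal transcripts the highest level was that of Med21, with 26.2 ± 6.04 CPM per kilobase in AAV-H19 and 52.9 ± 22.9 in AAV-Null livers. Its principal transcript has 572 nt, and Cdk19 was again lowest. Per kilobase of all exonic bases, Med29 was highest, with means of 11.1 in AAV-H19 and 15.04 in AAV-Null livers. The lowest by that measure was Cdk19 in AAV-H19 livers (0.603) and Med13l in AAV-Null livers (0.344). The order of the genes thus depended on the length used.

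The counts for partners of both complexes stand beside 5.6% of all genes higher and 6.07% lower. Other Mediator and SWI/SNF subunits gave 1 call in 16 tested genes. Bcl7c, a small BAF subunit, fell by 1.099 ± 0.16 on the log2 scale (edgeR adjusted p = 0.0092). The 16 had a median of 0.08. Of 12 RNA polymerase II subunit genes 2 rose and 6 fell, with a median of -0.78 and a median transcript of 1332.5 nt. Of protein-coding genes up to 2000 nt, 17.4% were lower. Polr2a, the catalytic subunit, rose by 1.41 ± 0.27, and Polr2l, Polr2i and Polr2f, small subunits, fell by 0.85, 0.96 and 1.06 on the log2 scale (edgeR adjusted p = 0.0193, 0.0194, 0.0213 and 0.0226). Of 31 general transcription factor genes Taf1 rose by 1.71 ± 0.19, and Taf10 and Gtf2h5 fell by 0.87 and 1.02 on the log2 scale (edgeR adjusted p = 0.00343, 0.0117 and 0.0277), with a median of -0.00 for the list. Of 31 tested genes of other remodellers 10 rose, with a median of 0.50 and a median transcript of 6188 nt. Of protein-coding genes of 6000 to 8000 nt, 20.2% were higher. Bptf, Ino80, Chd2 and Chd1 of the remodeller list rose by 0.98, 1.104, 1.03 and 0.94 on the log2 scale (edgeR adjusted p = 0.0134, 0.018, 0.0218 and 0.0272). Among 16 elongation partners Aff4 and Ccnt1 rose by 0.87 and 0.58, and Supt4a and Cdk9 fell by 1.31 and 0.51 on the log2 scale (edgeR adjusted p = 0.0174, 0.0433, 0.0336 and 0.0427). With the length offset, which called 2.55% of all genes, 1 gene of the other-subunit list passed. So did 2 each of the polymerase and general factor lists, and 0 of the remodeller and elongation lists.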

How the data were processed

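Poly(A) RNA of 4 AAV-H19 and 4 AAV-Null livers was sequenced from stranded TruSeq libraries, per the labels, and each library is 1 sample. The sample numbers 21 to 28 were read as separate livers, and the labels say no more of how the animals were kept apart. A p-value here reflects only how these samples spread, which may be technical if that reading is wrong. The deposited table holds estimated counts per Ensembl gene, and rounding changed 0 values. In the library ranges, 820 to 990 genes had the value 4 and 124 to 164 the value 5, so 1 unit need not be 1 read. The submitters' processing notes name HISAT and StringTie, without versions. Build, annotation and strand setting: not given in the sources used here. Symbols, lengths and coordinates came from GENCODE M21 (GRCm38) and promoter windows from RefSeq.

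The 45 members, the gene lists and the length alternatives were chosen with earlier results of these data known. Genes passed edgeR's filterByExpr (minimum count 10), which left 16672 genes, and the removed genes held 0.0454% of counts. The main test was edgeR's quasi-likelihood test (edgeR 4.0.16, R 4.3.3) with TMM scaling, robust fitting and Benjamini-Hochberg adjustment over all 16672 genes. SE is the size of the log2 fold change over the root of F. The common biological coefficient of variation was 0.389. Paralog ratios used a pseudocount of 0.5 and an exact permutation test over 70 assignments of libraries, adjusted over 6 pairs.

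Alternatives were DESeq2 1.42.0 and its size factors, upper-quartile factors, limma-voom (limma 3.58.1), no filter, 1 CPM in 4 libraries, values divided by 4, overlapping genes summed, a length offset (natural spline with 5 degrees of freedom in each library) and leaving out each library. An offset by APPRIS principal transcript was added after seeing the data, because the longest transcript of 9 members is not a coding form. Tested on simulated data of this comparison with 16166 genes, true 2-fold differences were called in 18% and 4-fold ones in 87%. With a simulated length trend (16091 genes), calls among unchanged genes numbered 230 without and 10 with the offset. True 2-fold differences were then called in 40% without and 21% with it, beside 18% where no trend was simulated. The trend was added on top of those differences, so the 40% does not measure detection of a 2-fold change alone. The simulated trend was smooth in log2 length and the same in every AAV-H19 library. Such a trend can be fitted by the offset by design, so this says nothing of trends that differ between libraries.

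Values in every library are given for members past the threshold, for Med1, Med14, Med12, Med13, Cdk8, Ccnc, Smarca4, Smarca2, Smarcb1, Arid1a and Pbrm1, and for the 3 most negative and 3 most positive changes of each complex. Of each list of partners, up to 4 genes with the smallest p past the threshold are named.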

Additional observations from a re-analysis of the deposited data

Results flagged for a closer look

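In 3 of 90 groups of 4 livers, 1 liver stood apart from the others by a gap wider than Dixon's critical share of the group's range, and none of 12 groups of paralog ratios had such a liver. Chance gives about 1 such liver in 20 groups. Med13l was at 17.08 CPM in AAV-H19 27, where the other AAV-H19 livers were at 13.2 to 13.7 CPM. Med13 was at 17.0 CPM in AAV-Null 21, where the other AAV-Null livers were at 14.5 to 14.8 CPM. Med20, a head subunit, was at 12.99 CPM in AAV-H19 26, where the other AAV-H19 livers were at 14.9 to 15.1 CPM.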

How the results depend on the processing

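Over 18 alternatives, 711 of 810 fitted changes of the 45 genes kept their direction and their side of the threshold, 42 lost the call, 23 gained one and 34 changed sign, none of the 34 with a call in either fit. No paired analysis was possible because the groups share no replicate numbers. Upper-quartile factors gave 4 lower Mediator genes, 1 higher SWI/SNF gene, 1557 lower genes in all and a Mediator median of -0.19. DESeq2 gave 6 higher and 6 lower Mediator genes, and 1635 higher and 2010 lower genes in all. A filter of 1 CPM gave 2 lower Mediator genes and values divided by 4 gave 1. The length offset gave 1 higher Mediator gene, 0 higher and 1 lower SWI/SNF genes, 249 higher and 176 lower genes in all and a SWI/SNF median of 0.041. With principal transcripts these were 1 and 0 higher genes, 217 higher and 143 lower genes in all, and medians of 0.068 for Mediator and 0.0088 for SWI/SNF. Leaving out 1 library gave 1 to 3 higher and 0 to 2 lower Mediator genes, 0 to 3 higher SWI/SNF genes, 86 to 1023 higher and 27 to 1050 lower genes in all, and a Mediator median of -0.12 to 0.052.

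Signs changed with upper-quartile factors in Med20 (-0.0089), Med27 (-0.064) and Smarca2 (-0.027), and with limma-voom in Med18 (0.050). With the length offset they changed in Med18 (0.13), Med20 (-0.29), Med14 (-0.064), Cdk19 (-0.15), Smarca2 (-0.31), Actl6a (0.0064) and Pbrm1 (-0.10). With principal transcripts they changed in Med8 (0.065), Med18 (0.071), Med22 (0.32), Med10 (0.24), Med14 (-0.094), Cdk19 (-0.19), Smarca2 (-0.34) and Pbrm1 (-0.074). Leaving out 1 library gave Actl6a -0.25 to 0.068, Med10 -0.47 to 0.12, Med17 -0.34 to 0.050, Med18 -0.36 to 0.32, Med20 -0.0070 to 0.20, Med27 -0.064 to 0.15, Med28 -0.57 to 0.19, Med7 -0.0051 to 0.45 and Smarca2 -0.077 to 0.27. The cause was not tested in each case. With 4 livers a group, small changes were often not detectable.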

Other observations

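Several Mediator genes share exonic bases with a gene on the opposite strand, and the strand setting of the counting is not given. The shared part was 26.3% of the exonic bases of Med31, 21.4% of Med20 and 21.2% of Med7, and it was 7.38% in Med13 and 0.357% in Med13l. Among the 38 promoter windows the median number of CpG dinucleotides in 250 bases was 18.5, with a range of 3 to 51, against a median of 6 in all 32851 windows. A GC box was found in 4 of the 5 genes with a window that rose, though the windows of Arid1b and Med1 lie within the annotated gene.

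Other cell type markers were present at lower levels. The summed level of 6 endothelial markers was 199 to 252 CPM in AAV-H19 and 146 to 216 CPM in AAV-Null livers, and that of 6 stellate cell markers 228 to 255 CPM in AAV-H19 and 243 to 313 CPM in AAV-Null livers. Of the endothelial markers Cdh5 rose and Clec4g fell (edgeR adjusted p = 0.0494 and 0.0355). For 5 cholangiocyte markers it was 39.2 to 61.5 CPM in AAV-H19 and 50.1 to 69.0 CPM in AAV-Null livers. Spp1, with means of 31.2 and 46.8 CPM, made up most of that sum. The other 4 had positive fitted changes, and Sox9 rose (log2 fold change 1.27, edgeR adjusted p = 0.0246). With the length offset 0 endothelial or cholangiocyte markers passed. The sum of 6 lymphocyte markers was 0.442 to 0.918 CPM in AAV-H19 and 1.13 to 1.80 CPM in AAV-Null livers. Of these, 4 of the 6 were at 0 in at least 1 library.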
